A study of Mus musculus with 2 samples.

Results

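The antioxidant and glutathione enzymes are the genes that remove superoxide and peroxides, keep protein thiols reduced, make and recycle glutathione, and attach glutathione to reactive compounds. Members were taken by gene symbol alone: the numbered Gpx, Prdx, Txn, Txnrd, Sod and Mgst genes, the alpha, kappa, mu, omega, pi and theta glutathione transferases, and Cat, Gclc, Gclm, Gss, Gsr, Nqo1, Srxn1, Nfe2l2 and Keap1. The symbols matched 52 of the 50608 rows deposited, and no row matched the pi class. A gene was called measured at a mean of at least 1 FPKM, fragments per kilobase of gene scaled to sequencing depth, and 34 of the 52 were measured.

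The samples were peritoneal macrophages, phagocytes of the abdominal cavity, from C57BL6J mice, with males and females pooled and E15.5 given as the developmental stage. The study has 1 library from cells treated with GW3965, a drug that activates the liver X receptors (LXRs), and 1 from cells given DMSO, the solvent. The LXRs are nuclear receptors that sense oxidised cholesterol, and the libraries allow the RNA levels with and without their activation to be set side by side. The sources used here give neither dose nor treatment time, and no stimulus other than GW3965 is named.

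In a cell, superoxide dismutases turn superoxide into hydrogen peroxide, which catalase, glutathione peroxidases and peroxiredoxins then reduce. Glutathione peroxidases draw on glutathione, which glutathione reductase regenerates, and most peroxiredoxins draw on thioredoxin, which thioredoxin reductase regenerates. Macrophages make superoxide with the phagocyte NADPH oxidase. Many of these genes are known targets of NRF2, a transcription factor that KEAP1 holds at low levels in unstressed cells.

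The column read as GW3965 matched its sample's description by its opening letters only, so every statement on GW3965 rests on that match. The steps of the FPKM values gave the totals by which each library was scaled, 75287120 reads for GW3965 and 101866062 reads for DMSO. At these totals a gene of 1 kb gains 0.0133 FPKM per read in GW3965 and 0.00982 FPKM per read in DMSO. Most rows had a higher FPKM in GW3965: over the 11889 measured rows the median log2 of (GW3965 + 1)/(DMSO + 1) was 0.24. A log2 ratio from which this median has been subtracted is called centred below, and 90% of measured rows had centred values between -0.27 and 0.28. With 1 library per group there are no replicates and no test of the treatment. The intervals given are exact conditional (Clopper-Pearson) 95% intervals on the smallest whole reads that give both FPKM values. They cover counting error only and say nothing of the spread between mice or cultures. Prdx2, Prdx5, Txnrd2, Gclm, Gss, Gstm5 and Keap1 share exon bases with another gene, and without a stated strand setting their values may hold reads of that neighbour.

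No enzyme passed the limit used for a call, a 1.5-fold difference on the log2(FPKM + 1) scale, and the median of the group was that of the whole table. The added 1 FPKM shrinks the differences of low genes, and in plain FPKM 1 measured enzyme, Gstm5, was past 1.5-fold. Its plain ratio of 1.62 lay inside the range from 0.976 to 1.64 that held 90% of all measured rows, so it did not stand out from them. Against the median plain ratio of all measured rows, 1.25, Mgst3 was more than 1.5-fold lower, with a ratio of 0.796. On the log2(FPKM + 1) scale none of the 34 measured genes was higher in GW3965 by 1.5-fold, where 3.46% of all measured rows were, and none was lower by 1.5-fold, where 0.0757% were. After centring none was higher either, against 1.38% of all measured rows, and none was lower, against 0.336%. These shares stand for 411 higher and 9 lower rows as deposited, and for 164 higher and 40 lower rows after centring. Among the 8866 measured rows with a gene symbol other than Gm or Rik names the shares were 2.2% higher and 0.0451% lower as deposited, and 0.835% higher and 0.248% lower centred. A count of 0 among 34 genes is close to each of these backgrounds. Their median log2 ratio was 0.24, the same as that of all measured rows to 2 decimals, and 17 genes lay above the median of all rows and 17 below it. A higher plain value in GW3965 was seen in 32 of the 34, or 94.1%, against 93.6% of all measured rows. Within 0.1 of the median on the centred log2 scale lay 47.1% of the enzymes and 50.1% of all measured rows.

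Prdx1, Txn1 and Gstm1 were the most abundant and together held 48.7% of the summed FPKM of the 52 genes in GW3965 and 50% in DMSO. The sum over all 52 genes was 1408 FPKM in GW3965 and 1142 FPKM in DMSO, a ratio of 1.23, beside a median ratio of 1.25 over all measured rows.

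**Figure D1:**
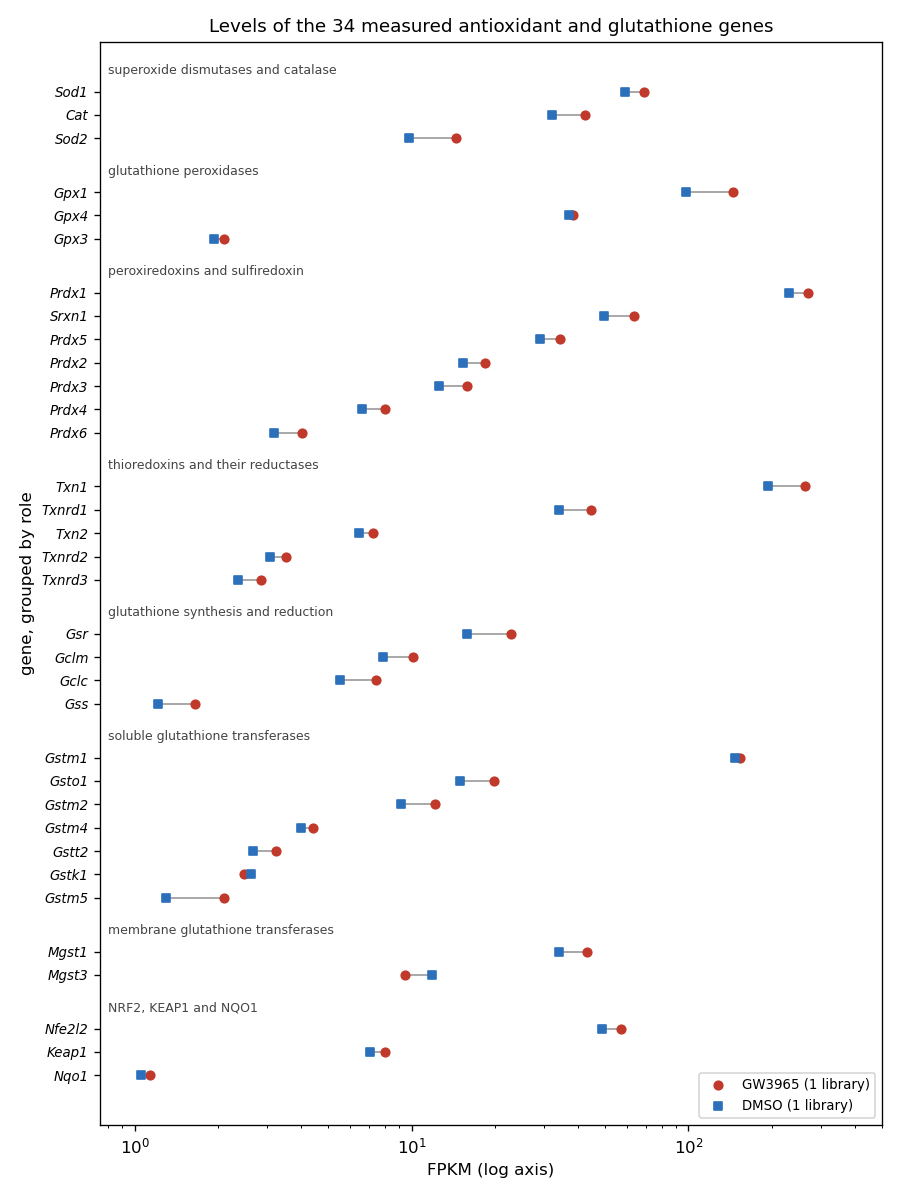
FPKM of the 34 measured genes (log axis) in the GW3965 library (circles) and the DMSO library (squares), grouped by role. Only Gstk1 and Mgst3 have the GW3965 point to the left of the DMSO point.

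Nfe2l2 and Keap1, the regulators, lay under the median of all rows. Nfe2l2, which encodes NRF2 and lies at chr2:75675513-75704641 of GRCm38, had 57.3 FPKM in GW3965 and 48.9 FPKM in DMSO, with a ratio of 1.17 (1.15 to 1.2) and centred at -0.02. Keap1, the adaptor that directs NRF2 to degradation, had 8 FPKM in GW3965 and 7.09 FPKM in DMSO. Its ratio was 1.13 (1.07 to 1.19), and its centred value of -0.09 was above that of 27.5% of measured rows. The level of Nfe2l2 was thus 7.16 times that of Keap1 in GW3965 and 6.89 times in DMSO, a change of 1.04-fold (0.982 to 1.1) in a within-library ratio that no scaling can alter. Intervals of such ratios come from the counting error of all 4 values, as a normal approximation on the log scale. Nqo1, the quinone reductase widely used to report NRF2 activity, was barely measured, with 1.14 FPKM in GW3965 and 1.05 FPKM in DMSO. Its ratio was 1.08 (0.814 to 1.44), which includes both no difference and the median of all rows.

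NRF2 binds DNA with small MAF proteins at the antioxidant response element, whose core was searched as TGACNNNGC on both strands of RefSeq promoter windows (GRCm38.p6, 250 bases before to 50 after each annotated start). Windows were given for 30 of the 34 measured genes and 8 of these genes held a match, or 26.7%, against 14% of 27025 genes and 12.4% of 32851 windows. Those backgrounds also hold genes that were not measured here. The 8 are printed because they are the measured enzymes whose promoter window carries the letters. Each is read 5′ to 3′ on the strand of the match, with the core in capitals and 10 bases on either side:
Prdx1: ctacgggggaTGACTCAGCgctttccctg
Gclm: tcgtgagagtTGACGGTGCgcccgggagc
Txnrd1: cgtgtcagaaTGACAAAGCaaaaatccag
Mgst1: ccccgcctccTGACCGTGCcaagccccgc
Sod1: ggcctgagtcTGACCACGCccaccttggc
Gstm5: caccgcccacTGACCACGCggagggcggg
Nfe2l2: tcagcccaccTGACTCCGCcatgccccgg
Srxn1: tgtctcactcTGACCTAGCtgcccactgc

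The printed stretch of Prdx1 lies at chr4:116685456-116685484 on the minus strand, that of Gclm at chr3:122245413-122245441 on the minus strand and that of Txnrd1 at chr10:82859104-82859132 on the minus strand. Those of Mgst1 (chr6:138140461-138140489) and Sod1 (chr16:90220696-90220724) are also on the minus strand. Gstm5 is read at chr3:107895802-107895830 on the plus strand and Nfe2l2 at chr2:75704885-75704913 on the minus strand. The Srxn1 stretch, chr2:152105542-152105570 on the minus strand, is the only one of the 8 downstream of the RefSeq start of its window. The Txnrd1 and Mgst1 stretches lie before such a start but inside the gene. By GENCODE M21 these plus-strand genes begin at chr10:82833951 and chr6:138140316. The median centred log2 ratio was 0.08 for the 8 genes with a match and -0.03 for the other measured genes with a window, both well inside the range of 90% of rows. The same core followed by A was in the window of 1 of the 30 genes, Txnrd1, in 3.45% of all genes and in 3.04% of all windows. A repeat was searched as GGTCA, any 4 bases and GGTCA again, which is 1 base closer than in the direct repeat the LXRs bind. That LXR repeat was not searched. The string searched was in no window of the 30 genes, in 0.0518% of all genes and in 0.0457% of all windows. These matches describe letters in a short window and do not show binding.

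Among the enzymes that act on superoxide and hydrogen peroxide, the mitochondrial dismutase had a higher ratio of GW3965 to DMSO than the cytosolic enzyme. Sod2, the manganese dismutase of mitochondria (chr17:13006846-13040063), had 14.5 FPKM in GW3965 and 9.78 FPKM in DMSO, a ratio of 1.48 (1.41 to 1.56). Its centred log2 ratio was 0.28, above that of 95.2% of measured rows. Sod1, the copper and zinc dismutase of the cytosol, had 69.2 FPKM in GW3965 and 58.8 FPKM in DMSO, a ratio of 1.18 (1.11 to 1.25), which centred is -0.01. Sod1 was the more abundant in both libraries, with Sod2 at 0.21 of its level in GW3965 and 0.166 in DMSO, so the within-library ratio was 1.26-fold (1.17 to 1.36) higher in GW3965. Cat, the peroxisomal catalase, had 42.3 FPKM in GW3965 and 32.2 FPKM in DMSO, a ratio of 1.31 (1.27 to 1.36) and a centred value of 0.14.

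The glutathione peroxidases lay on both sides of the median of all rows. Gpx1, the abundant cytosolic and mitochondrial selenoenzyme that reduces soluble peroxides (chr9:108338903-108340343), had 145 FPKM in GW3965 and 98.1 FPKM in DMSO. Its ratio of 1.48 (1.44 to 1.51) gave the highest centred log2 ratio of the 34 genes, 0.31, above that of 96.1% of measured rows. Gpx4, the selenoenzyme that reduces lipid peroxides in membranes (chr10:80047166-80056439), had 38.4 FPKM in GW3965 and 36.9 FPKM in DMSO, a ratio of 1.04 (0.997 to 1.09) and a centred value of -0.19. Within each library Gpx1 stood at 3.77 times Gpx4 in GW3965 and 2.66 times in DMSO, a shift of 1.42-fold (1.35 to 1.49). Gpx3, the secreted peroxidase of plasma, had 2.10 FPKM in GW3965 and 1.94 FPKM in DMSO, and its ratio of 1.08 (0.775 to 1.51) has an interval that includes the ratios of both.

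**Figure D2:**
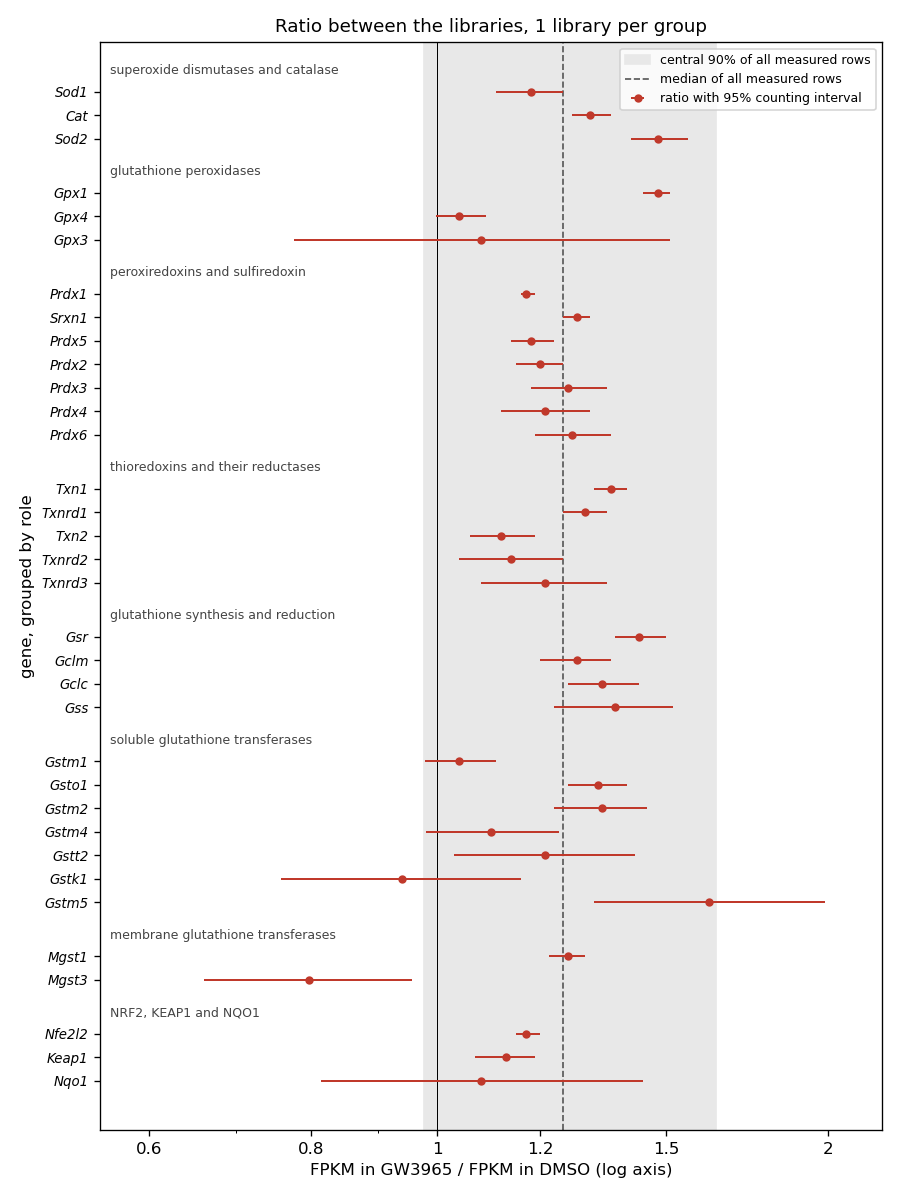
Ratio of FPKM in GW3965 to FPKM in DMSO for the 34 measured genes (log axis), with 95% counting intervals, grouped by role. The dashed line is the median of all measured rows, 1.25, and the grey band, from 0.976 to 1.64, holds 90% of them. The peroxiredoxins sit close around the dashed line, while Mgst3 and Gstk1 lie left of the band.

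The peroxiredoxins had ratios close to the median of all rows and to each other. All 6 were measured, and with Srxn1 their centred log2 ratios ran from -0.01 to 0.11, the narrowest range of the roles with more than 3 measured genes. Prdx1, a cytosolic peroxidase and the most abundant enzyme of the 52, had 270 FPKM in GW3965 and 230 FPKM in DMSO, a ratio of 1.17 (1.16 to 1.19). Prdx5, found in mitochondria, peroxisomes and cytosol, had 34.3 FPKM in GW3965 and 29.0 FPKM in DMSO, a ratio of 1.18 (1.14 to 1.23). The level of Prdx1 over Prdx5 was 7.86 in GW3965 and 7.92 in DMSO, which differ by a factor of 0.993 (0.955 to 1.03).

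The remaining peroxiredoxins were less abundant. Prdx2, cytosolic, had 18.4 FPKM in GW3965 and 15.3 FPKM in DMSO, a ratio of 1.2 (1.15 to 1.25). Prdx3, mitochondrial, had 15.9 FPKM in GW3965 and 12.6 FPKM in DMSO, a ratio of 1.26 (1.18 to 1.35). Prdx4, of the endoplasmic reticulum, had 8.01 FPKM in GW3965 and 6.64 FPKM in DMSO, a ratio of 1.21 (1.12 to 1.31). These 3 genes thus stood in the same order in both libraries. Prdx6, which also acts on oxidised phospholipids, had 4.03 FPKM in GW3965 and 3.18 FPKM in DMSO, a ratio of 1.27 (1.19 to 1.36). Srxn1, sulfiredoxin, which repairs overoxidised peroxiredoxins (chr2:152105516-152111376), was more abundant than every peroxiredoxin but Prdx1, at 63.5 FPKM in GW3965 and 49.5 FPKM in DMSO, a ratio of 1.28 (1.25 to 1.31).

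In the thioredoxin system the cytosolic pair had higher ratios than the mitochondrial pair. Txn1, the cytosolic thioredoxin (chr4:57943373-57956411), had 263 FPKM in GW3965 and 194 FPKM in DMSO, a ratio of 1.36 (1.32 to 1.4), which centred is 0.19. Its reductase Txnrd1, a selenoenzyme, had 44.3 FPKM in GW3965 and 34.1 FPKM in DMSO, a ratio of 1.3 (1.25 to 1.35) and a centred value of 0.12. Both cytosolic genes lay above the median of all rows. Txn2, the mitochondrial thioredoxin, had 7.28 FPKM in GW3965 and 6.47 FPKM in DMSO, a ratio of 1.12 (1.06 to 1.19). Its reductase Txnrd2 had 3.51 FPKM in GW3965 and 3.08 FPKM in DMSO, a ratio of 1.14 (1.04 to 1.25), so that both mitochondrial genes had a centred value of -0.10. Within a library, Txn1 over Txn2 was 1.21-fold (1.13 to 1.28) higher in GW3965 than in DMSO, and Txnrd1 over Txnrd2 1.14-fold (1.04 to 1.25) higher. Txnrd3, a reductase that also acts on glutathione, had 2.86 FPKM in GW3965 and 2.36 FPKM in DMSO, a ratio of 1.21 (1.08 to 1.35).

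All 4 genes of glutathione synthesis and reduction lay above the median of all rows, by centred log2 ratios from 0.02 to 0.25. Gsr, glutathione reductase (chr8:33652523-33698163), had 22.8 FPKM in GW3965 and 15.9 FPKM in DMSO, a ratio of 1.43 (1.37 to 1.5), the third highest centred value of the 34. Gclc, the catalytic subunit of the rate-limiting ligase, had 7.41 FPKM in GW3965 and 5.52 FPKM in DMSO, a ratio of 1.34 (1.26 to 1.43). Its modifier subunit Gclm had 10.1 FPKM in GW3965 and 7.91 FPKM in DMSO, a ratio of 1.28 (1.2 to 1.36). The proportion of the subunits was similar in the libraries, with Gclc at 0.734 of the level of Gclm in GW3965 and 0.698 in DMSO, a factor of 1.05 (0.963 to 1.15). Gss, glutathione synthetase, had only 1.65 FPKM in GW3965 and 1.21 FPKM in DMSO, a ratio of 1.37 (1.23 to 1.52). Because 1 FPKM is added, its centred log2 ratio of 0.02 understates that ratio. Gsr and Gpx1, which share the glutathione cycle, had nearly the same ratio, with Gsr at 0.157 of the level of Gpx1 in GW3965 and 0.162 in DMSO, a factor of 0.972 (0.927 to 1.02).

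Of the 18 soluble glutathione transferases only 7 were measured, and Gstm1 dominated them. The 7 mu class genes lie in a cluster at chr3:107895821-108044894, 1 on the plus strand and 6 on the minus strand. Gstm1, which conjugates glutathione to electrophiles, had 153 FPKM in GW3965 and 147 FPKM in DMSO, or 88.9% of the cluster's summed FPKM in GW3965 and 90.9% in DMSO. Its ratio was 1.04 (0.978 to 1.11), with a centred log2 ratio of -0.19.

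Its neighbours did not share that ratio. Gstm2 had 12.2 FPKM in GW3965 and 9.13 FPKM in DMSO, a ratio of 1.34 (1.23 to 1.45). Gstm5, the gene on the plus strand, had 2.11 FPKM in GW3965 and 1.3 FPKM in DMSO, a ratio of 1.62 (1.32 to 1.99), the highest plain ratio of the measured enzymes, at a level near the measured limit. Gstm4 had 4.41 FPKM in GW3965 and 4 FPKM in DMSO, a ratio of 1.1 (0.98 to 1.24). Relative to Gstm1 in the same library, Gstm2 was 1.28-fold (1.16 to 1.42) and Gstm5 1.55-fold (1.26 to 1.92) higher in GW3965. The mu class genes are close copies, and no source used here says how reads with several matches were treated, so their separate values are uncertain.

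The other classes held 3 measured genes. Gsto1, the omega class enzyme that reduces dehydroascorbate, had 19.8 FPKM in GW3965 and 14.9 FPKM in DMSO, a ratio of 1.33 (1.26 to 1.4). Gstk1, the kappa class enzyme of mitochondria and peroxisomes (chr6:42245935-42250447), had 2.48 FPKM in GW3965 and 2.64 FPKM in DMSO, a ratio of 0.939 (0.758 to 1.16). Its centred value of -0.31 was above that of only 3.45% of measured rows, though its counting interval includes a ratio of 1. Gstt2, a theta class gene in a cluster of 4 at chr10:75774115-75837424, had 3.23 FPKM in GW3965 and 2.67 FPKM in DMSO, a ratio of 1.21 (1.03 to 1.42). It held 73.4% of that cluster's summed FPKM in GW3965 and 73.3% in DMSO.

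Mgst3 had the lowest centred log2 ratio of the 34 measured genes. This membrane enzyme of the endoplasmic reticulum, which conjugates glutathione and reduces lipid peroxides (chr1:167371966-167393841), had 9.44 FPKM in GW3965 and 11.9 FPKM in DMSO. Its ratio was 0.796 (0.661 to 0.956), and its centred log2 ratio of -0.54 was above that of only 0.446% of measured rows, just inside the 1.5-fold limit of 0.58. Mgst1, its relative in the same membrane, had 43.0 FPKM in GW3965 and 34.1 FPKM in DMSO, a ratio of 1.26 (1.22 to 1.3) and a centred value of 0.08. Mgst3 thus stood at 0.22 of the level of Mgst1 in GW3965 and 0.348 in DMSO, a factor of 0.632 (0.526 to 0.759) that does not depend on the scaling. The gene pairs compared within a library were chosen after their values were seen.

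The enzymes below 1 FPKM numbered 18, and 8 of them had a mean under 0.1 FPKM. Silent genes were also listed above 0: the 1083 olfactory receptor rows, for genes used in the nose, had a median of 0.069 FPKM in GW3965 and 0.0261 FPKM in DMSO. In 95% of those rows the value was at most 0.16 FPKM in GW3965 and 0.0812 FPKM in DMSO. Only 7 of the 18 enzymes exceeded these levels in both libraries. Gstt3, of the theta class, was the highest, at 0.903 FPKM in GW3965 and 0.705 FPKM in DMSO. Gpx8 and Gpx7 are peroxidases of the endoplasmic reticulum. Gpx8 had 0.682 FPKM in GW3965 and 0.418 FPKM in DMSO, a ratio of 1.63 (1.04 to 2.56). Gpx7 had 0.479 FPKM in GW3965 and 0.474 FPKM in DMSO, and the counting interval of its ratio, 0.667 to 1.52, overlaps that of Gpx8. The other 4 were transferases at lower levels. Gsta4, of the alpha class, had 0.41 FPKM in GW3965 and 0.35 FPKM in DMSO, and Gsta3 had 0.209 FPKM in GW3965 and 0.148 FPKM in DMSO. Gsto2, of the omega class, had 0.267 FPKM in GW3965 and 0.238 FPKM in DMSO, and Gstt1 had 0.216 FPKM in GW3965 and 0.229 FPKM in DMSO.

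The other 11 stood within that low range in at least 1 library. Sod3, the secreted dismutase, had 0.117 FPKM in GW3965 and 0.122 FPKM in DMSO. Gstm3 had 0.115 FPKM in GW3965 and 0.146 FPKM in DMSO, and Gstm7 had 0.158 FPKM in GW3965 and 0.0616 FPKM in DMSO. None of these 3 exceeded the olfactory receptor limit in GW3965. The gut peroxidase Gpx2, with 0.0583 FPKM in GW3965 and 0.0108 FPKM in DMSO, rested on at least 4 reads in GW3965 and 1 in DMSO, so its ratio of 5.41 (0.536 to 267) is not a measurement of change. Gsta1 was listed at 0 in GW3965 and at 0.0357 FPKM in DMSO. At the measured limit itself, Nqo1 with a mean of 1.09 FPKM was the lowest gene inside and Gstt3 with a mean of 0.804 FPKM the highest outside.

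**Figure D3:**
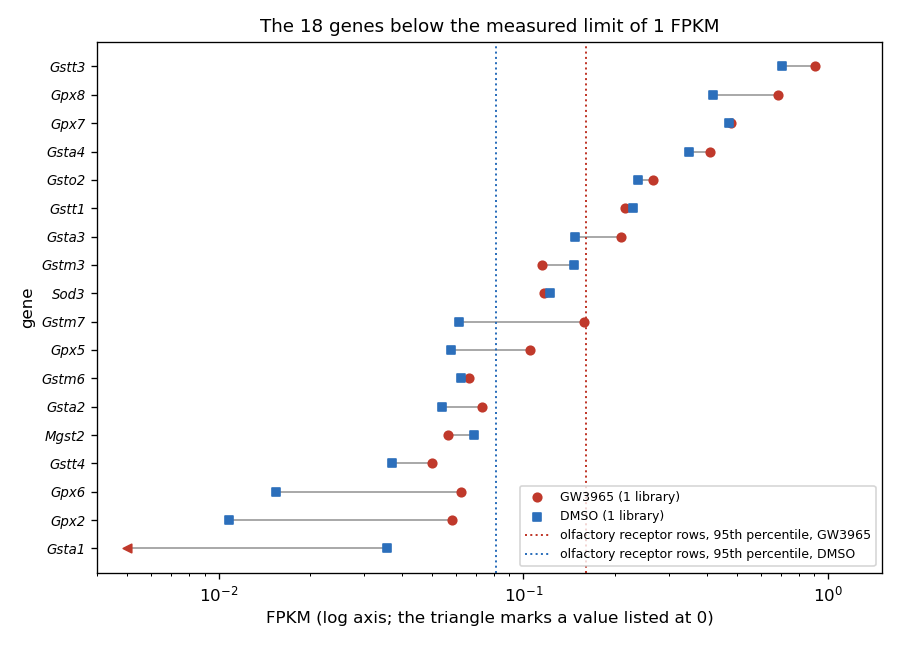
FPKM of the 18 enzymes below the measured limit (log axis) in the GW3965 library (circles) and the DMSO library (squares). The dotted lines mark the 95th percentile of the olfactory receptor rows, 0.16 FPKM in GW3965 and 0.0812 FPKM in DMSO, and 7 genes lie to the right of each library's own line in both libraries.

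Other NRF2 targets, listed apart from the enzymes, lay around the same median. Of 22 listed genes 19 were measured, 1 was higher by 1.5-fold on the log2(FPKM + 1) scale and 0 lower, and after centring 0 were on either side. Their median centred log2 ratio was 0.00, beside 0 for all measured rows by construction. The gene past the limit on that scale was G6pdx, the enzyme that opens the pentose phosphate pathway and supplies NADPH, at 64.4 FPKM in GW3965 and 42.2 FPKM in DMSO, a ratio of 1.53 (1.43 to 1.63) and a centred value of 0.35. Nqo2, a quinone reductase, had 8.43 FPKM in GW3965 and 5.46 FPKM in DMSO, a ratio of 1.54 (1.45 to 1.64), past 1.5-fold in plain FPKM only. The same held for Osgin1, near the measured limit, with 1.51 FPKM in GW3965 and 0.816 FPKM in DMSO, a ratio of 1.85 (1.56 to 2.19). In plain FPKM 90% of all measured rows had ratios between 0.976 and 1.64, so Nqo2 lay inside that range and Osgin1 above it. Osgin1 was named after its values were seen. The ferritin chains were at the other end. Fth1 had 3587 FPKM in GW3965 and 4233 FPKM in DMSO, a centred value of -0.48, and Ftl1 had 3740 FPKM in GW3965 and 3727 FPKM in DMSO, a centred value of -0.24.

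Of 11 partners of NRF2 8 were measured, none past 1.5-fold on the log2(FPKM + 1) scale as deposited or centred, with a median centred value of 0.04. The small MAF genes lay on both sides of that median. Mafg had 14.3 FPKM in GW3965 and 11.3 FPKM in DMSO, a centred value of 0.08. Mafk had 5.43 FPKM in GW3965 and 5.66 FPKM in DMSO, a centred value of -0.29, and Maff had 1.16 FPKM in GW3965 and 1.25 FPKM in DMSO, at -0.30, so that both lay below the band that holds 90% of measured rows. Cul3, the scaffold of the ligase that KEAP1 serves, had 21.6 FPKM in GW3965 and 16.2 FPKM in DMSO, at 0.15.

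Of 13 listed genes that make superoxide or nitric oxide, 8 were measured, and their centred values ran from -0.40 to 0.00, with a median of -0.21. None was past 1.5-fold on the log2(FPKM + 1) scale as deposited or centred. Nos2, the inducible nitric oxide synthase, was not among the measured genes, with 0.0661 FPKM in GW3965 and 0.0643 FPKM in DMSO. Cybb, the catalytic subunit of the phagocyte NADPH oxidase, had 38.7 FPKM in GW3965 and 41.7 FPKM in DMSO, a ratio of 0.928 (0.903 to 0.954). Its membrane partner Cyba had 357 FPKM in GW3965 and 397 FPKM in DMSO, a ratio of 0.9 (0.883 to 0.917). Of the cytosolic subunits, Ncf1 had 30.3 FPKM in GW3965 and 30.4 FPKM in DMSO, and Ncf4 had 27.5 FPKM in GW3965 and 27.6 FPKM in DMSO. As deposited these 4 values were thus close to equal or slightly lower in GW3965, while the typical row was 1.25 times higher in GW3965.

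**Figure D4:**
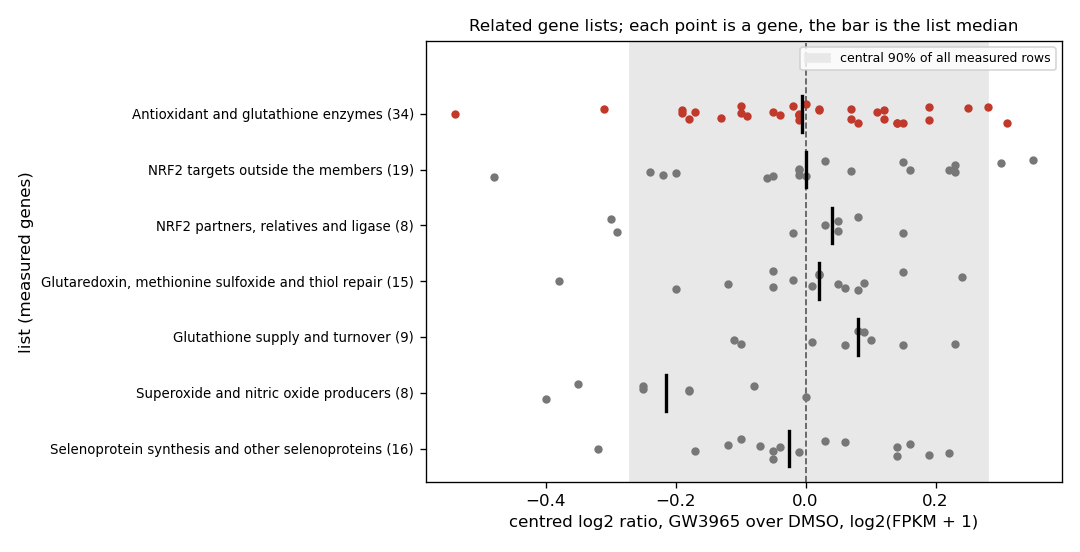
Centred log2 ratio of GW3965 over DMSO on the log2(FPKM + 1) scale for the 34 measured enzymes (top row) and for the measured genes of 6 related lists. Each point is a gene, the bar is the list's median and the grey band from -0.27 to 0.28 holds 90% of all measured rows. The medians lie near 0 except that of the superoxide and nitric oxide producers, at -0.21.

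Markers of macrophages in general were present. The 13 macrophage markers summed to 6136 FPKM in GW3965 and 5123 FPKM in DMSO, with 10 measured, while Gata6, Icam2 and Timd4, which mark resident peritoneal macrophages, had means below 1 FPKM. Mertk, a receptor for dying cells, was the 1 macrophage marker higher by 1.5-fold on the log2(FPKM + 1) scale, with 13.9 FPKM in GW3965 and 6.79 FPKM in DMSO, and it stayed past the limit after centring, at 0.69. Fcgr1, an antibody receptor, was past 1.5-fold in plain FPKM only, with 2.01 FPKM in GW3965 and 1.08 FPKM in DMSO. Its plain ratio of 1.86 lay above the range from 0.976 to 1.64 that held 90% of all measured rows. Mesothelial markers summed to 7.44 FPKM in GW3965 and 4.33 FPKM in DMSO, with 2 of 8 measured, and fibroblast markers to 25.8 FPKM in GW3965 and 17.5 FPKM in DMSO, with 5 of 7 measured. Both sums were thus higher in GW3965, by ratios of 1.72 and 1.47, beside a median ratio of 1.25 over all measured rows. Dcn, with 11.6 FPKM in GW3965 and 6.91 FPKM in DMSO, was the 1 fibroblast marker past 1.5-fold on the log2(FPKM + 1) scale. After centring it was not past the limit. Centred, 4 measured fibroblast markers lay above the median of all rows and 1 below it. Erythroid markers, whose cells are rich in Prdx2, Cat and Gpx1, were near 0, with 5 of 8 found and a sum of 0.574 FPKM in GW3965 and 0.484 FPKM in DMSO. B cell markers summed to 4.03 FPKM in GW3965 and 2.72 FPKM in DMSO, a ratio of 1.48, and endothelial markers to 5.15 FPKM in GW3965 and 5.35 FPKM in DMSO. Neutrophil markers summed to 4.29 FPKM in GW3965 and 3.64 FPKM in DMSO. Mast cell markers, none of them measured, summed to 1.85 FPKM in GW3965 and 0.751 FPKM in DMSO, a ratio of 2.46. Cpa3, a mast cell protease, had 0.638 FPKM in GW3965 and 0.232 FPKM in DMSO, and it exceeded the olfactory receptor limit in both libraries, as did Tpsb2 and Cma1. The T and NK cell, eosinophil and hepatocyte lists also had no measured gene. Their sums were higher in GW3965, by ratios of 1.56, 2.5 and 2.39. The sums lay at 0.459 to 0.84 FPKM in GW3965 and 0.184 to 0.537 FPKM in DMSO. The silent olfactory receptor rows were higher in GW3965 too, with a median of 0.069 FPKM against 0.0261 FPKM in DMSO. No marker found was at 0 in either library. The part of other cells in the values above was not tested, and fewer cells of a type and less RNA per cell cannot be told apart in these samples.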

How the data were processed

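FPKM values, deposited by the authors, came as a column for each library. HTSeq 0.5.4p3, STAR 2.3.0 and mm10 (GRCm38) stand in the submitters' processing notes, which do not say how each was used. No source used here gives the annotation, the strand setting or the treatment of reads with several matches. By GENCODE M21 (GRCm38), 7 of the 34 measured enzymes share exon bases with another gene (Prdx2, Prdx5, Txnrd2, Gclm, Gss, Gstm5 and Keap1).

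The members and lists were chosen with earlier results of these data known. Ratios were computed as log2 of (GW3965 FPKM + 1)/(DMSO FPKM + 1), for rows with a mean of at least 1 FPKM, with 1.5-fold as the limit. Every measured enzyme is named, those below it with a mean of at least 0.1 FPKM or as examples, and up to 4 genes of each of 6 related lists by the largest absolute centred value.

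Totals were found as the whole numbers at which both FPKM columns become whole reads at 1 whole length. In 85.6% of 1112 checked rows such a length under 6000 bases existed, against 0.27% when the DMSO total was moved by 500. Lengths lay 99 bases below annotated ones where they matched. Reads are known up to a whole multiple, so the smallest was used and the intervals are, if anything, too wide. For within-library ratios the interval is the normal approximation on the log scale. The recovery was tested on simulated data.

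Scripts ran in Python 3.11.15 with scipy 1.17.1, pandas 2.3.3, numpy 2.4.6 and matplotlib 3.10.9. Alternatives covered pseudocount, filter, scaling, limit and the rows used.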

Additional observations from a re-analysis of the deposited data

How the results depend on the processing

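No paired analysis was possible because GW3965 and DMSO have 1 library each, and for the same reason no library could be left out. The count of enzymes lower by 1.5-fold was 0 under all 11 alternatives. The count higher was 0 as reported, 1 with a pseudocount of 0.1 (Gstm5) and 12 when both libraries were scaled to the same sum of FPKM, and 0 under the other 9. That scaling raises the ratio of every row. The median log2 ratio of the enzymes, 0.24 as reported, was 0.16 without a filter and 0.32 at a mean of at least 5 FPKM. Their centred median, 0.00 as reported, was -0.09 and 0.07 at these settings. The median log2 ratio became 0.50 with the same sum and 0.00 when centred with either limit. With the same upper quartile it was -0.02, and centred on rows of similar level it was -0.01. The last of these and centring with a 2-fold limit were chosen after seeing the data. Over all rows, 411 were higher as reported, and 1024 with a pseudocount of 0.1, 224 at a mean of at least 5 FPKM, 2604 with the same sum, 164 centred, 166 with the same upper quartile, 117 at 2-fold, 195 without NONCODE, Gm and Rik rows, 175 centred on rows of similar level and 80 centred at 2-fold. In that order 9 were lower as reported, and 20, 5, 1, 40, 35, 0, 4, 35 and 3, with 14 at a pseudocount of 0.5 and 17 without a filter. Rows higher numbered 592 at a pseudocount of 0.5 and 492 without a filter. Of 374 values of single enzymes under the alternatives, 13 passed the limit and 63 took the other sign. Depth limits the enzymes near 1 FPKM, such as Nqo1 with at least 92 reads in GW3965 and 115 in DMSO.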

Other observations

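Beyond the enzymes above, genes for selenoproteins and their synthesis had 16 of 19 listed genes measured, none past 1.5-fold on the log2(FPKM + 1) scale, as deposited or centred, and a median centred log2 ratio of -0.03. This machinery places selenocysteine in Gpx1, Gpx3, Gpx4 and the thioredoxin reductases. Sepp1, the secreted selenium carrier, had 52.8 FPKM in GW3965 and 38.1 FPKM in DMSO, a centred value of 0.22, and Selt, a selenoprotein of the endoplasmic reticulum, had 33.8 FPKM in GW3965 and 24.8 FPKM in DMSO, at 0.19. Sepn1 had 5.76 FPKM in GW3965 and 6.14 FPKM in DMSO, at -0.32. Eefsec, the elongation factor for selenocysteine, had 2.4 FPKM in GW3965 and 2.23 FPKM in DMSO, at -0.17.

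Glutaredoxins and repair enzymes of oxidised methionine and thiols had 15 of 16 listed genes measured and a median centred value of 0.02, with none past 1.5-fold on that scale. Txnl1, a thioredoxin-like protein, had 12.2 FPKM in GW3965 and 8.46 FPKM in DMSO, at 0.24, and Oxr1 had 15.4 FPKM in GW3965 and 11.5 FPKM in DMSO, at 0.15. The stress-induced sestrin Sesn2 had 2.94 FPKM in GW3965 and 3.33 FPKM in DMSO, at -0.38, and Sesn3 had 1.31 FPKM in GW3965 and 1.23 FPKM in DMSO, at -0.20. For glutathione supply and turnover 9 of 14 genes were measured, with a median of 0.08 and none past 1.5-fold on that scale. Chac1 and Chac2, which break glutathione down, had 1.64 and 1.95 FPKM in GW3965, against 1 and 1.12 FPKM in DMSO, at 0.15 and 0.23. Their plain ratios, 1.63 (1.31 to 2.04) and 1.74 (1.4 to 2.17), were past 1.5-fold in plain FPKM only. Over all measured rows the median plain ratio was 1.25 and 90% lay between 0.976 and 1.64. Chac1 was thus inside that range and Chac2 above it. Slc3a2, the heavy chain of the cystine transporter, had 63 FPKM in GW3965 and 57.2 FPKM in DMSO, at -0.11, and Lancl1 had 1.87 FPKM in GW3965 and 1.6 FPKM in DMSO, at -0.10.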
